A study of Chelon labrosus with 24 samples.

Results

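Thicklip grey mullets (Chelon labrosus), all immature, were caged in the inner part of Pasaia harbour, and their livers were compared between a second and a first sampling. The comparison uses the 12 arrays whose labels place them in the inner harbour, of 24 arrays in the series: 6 from the second sampling and 6 from the first. The other 12 arrays, 6 from the second and 6 from the first sampling of the outer harbour, show where the inner harbour differs. They also count in the choice of tested probes and in the estimate of spread behind the SE and p-value of each gene. All fish were immature field animals in cages, and the labels name no chemical treatment and no uncaged control. The sample labels give day 21 for the second and day 5 for the first sampling, whereas 15 and 3 days are stated in the text on the series as a whole, and the names second and first are used for that reason. The liver samples are numbered and are not stated outright to be one animal each. The word fish is used for them, and p-values cover only the variation from sample to sample, which may be technical in part. Whether 1 cage or several stood at a site is not given, so cage and site cannot be told apart.

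The liver converts foreign compounds in steps. Cytochrome P450 enzymes (CYP) of phase I, several of them induced through the aryl hydrocarbon receptor (AHR), make a compound reactive, conjugating enzymes of phase II such as GST and UGT attach a soluble group, and ABC transporters carry the product out of the cell. The liver also makes bile acids from cholesterol, most plasma proteins, lipoproteins and, in egg-laying fish under estrogen, yolk and egg envelope proteins. These roles order the results below. Genes are named as the array design spells them.

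Every probe of the array is 55 bases long, and most genes have 4 probes, which in many cases are 1 oligonucleotide moved along its transcript by single bases. Of 978 pairs of probes of 1 gene, 751 share at least 12 bases in a row and 581 share at least 50. Probes of 1 gene that overlap in this way are one target stretch and are not independent measurements. The 4 probes of CYP7 show the usual design, with the 52 bases common to all of them in capitals.
CYP7 probe 1: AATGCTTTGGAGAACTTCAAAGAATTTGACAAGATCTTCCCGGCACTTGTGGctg
CYP7 probe 2: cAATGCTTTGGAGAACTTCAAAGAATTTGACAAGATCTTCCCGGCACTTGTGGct
CYP7 probe 3: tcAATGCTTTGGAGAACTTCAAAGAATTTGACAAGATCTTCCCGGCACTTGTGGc
CYP7 probe 4: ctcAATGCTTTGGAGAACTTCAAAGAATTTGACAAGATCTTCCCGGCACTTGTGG
UGT has 2 stretches: probes 1 to 3 overlap, with the bases shared with another probe in capitals, and probe 4 lies elsewhere.
UGT probe 1: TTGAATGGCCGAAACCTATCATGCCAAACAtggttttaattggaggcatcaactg
UGT probe 2: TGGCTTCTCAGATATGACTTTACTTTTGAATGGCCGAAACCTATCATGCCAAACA
UGT probe 3: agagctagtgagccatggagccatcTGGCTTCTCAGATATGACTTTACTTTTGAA
UGT probe 4: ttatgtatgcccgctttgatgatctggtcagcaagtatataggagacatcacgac
The 4 probes of CYP1A1 share no run of that length, so this gene has 4 separate stretches, all printed in lower case.
CYP1A1 probe 1: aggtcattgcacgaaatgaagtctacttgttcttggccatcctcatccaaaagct
CYP1A1 probe 2: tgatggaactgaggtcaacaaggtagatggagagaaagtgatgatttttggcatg
CYP1A1 probe 3: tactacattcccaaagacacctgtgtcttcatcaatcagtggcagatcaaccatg
CYP1A1 probe 4: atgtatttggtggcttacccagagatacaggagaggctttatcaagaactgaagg
Complement C3 has 2 stretches whose results differ, and the probe shown for each has in capitals the bases it shares with its neighbour of the same stretch.
C3 probe 1: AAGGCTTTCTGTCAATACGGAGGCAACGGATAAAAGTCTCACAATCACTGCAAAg
C3 probe 3: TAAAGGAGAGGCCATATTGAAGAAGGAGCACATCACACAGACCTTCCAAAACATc
GST, ApoE and Heme_oxigenase32 each have a single stretch. The probe whose values are given below is shown, with the bases common to all 4 probes in capitals.
GST probe 1: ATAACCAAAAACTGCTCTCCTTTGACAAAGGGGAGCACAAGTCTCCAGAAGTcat
ApoE probe 4: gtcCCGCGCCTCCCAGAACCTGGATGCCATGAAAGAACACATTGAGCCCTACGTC
Heme_oxigenase32 probe 4: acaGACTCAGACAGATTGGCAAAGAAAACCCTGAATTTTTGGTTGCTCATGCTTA
Sequences are those of the scanner files, 5′ to 3′. No genome position is printed, because the probes carry none.

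The array holds 638 probes of 158 genes. A level is the log2 spot signal averaged over a probe's spots, minus the array's 75th percentile, and a difference is the second minus the first sampling of the inner harbour unless the text says otherwise. To be tested, a probe needed 50% or more of its spots well above background on 6 or more arrays out of 24, which 476 probes of 128 genes met. Second-sampling arrays had 424 to 470 probes detected well above background, against 443 to 484 on first-sampling arrays. The means of 447.5 ± 15.8 and 464.7 ± 14.1 (SD, n = 6 each) differed by -17.2 probes (exact permutation test, two-sided, p = 0.0866). Arrays of 1 group correlated across probes with r of 0.954 to 0.984 at the second and 0.925 to 0.989 at the first sampling. On each slide the second-sampling arrays lie in one row and the first-sampling arrays in the other, and array row cannot be told apart from sampling.

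In the inner harbour, 35 of the 128 tested genes (27.3%) had at least 1 probe called at an adjusted p under 0.05 in limma's moderated test. Of these, 24 genes (18.8%) were higher at the second sampling, led by CYP7, GST, UGT and Cu-Zn_SOD. The other 11 genes (8.59%) were lower, led by ApoE, Cathepsin_L, CYP_scc-24, Heme_oxigenase32 and the egg envelope gene Choriogenina_L. C3 is counted among the lower genes through 1 stretch, while its other stretch was not called. Over probes the counts were 121 of 476 (25.4%), 85 higher (17.9%) and 36 lower (7.56%), with 182 at an unadjusted p under 0.05. The lowest and highest fish of both samplings did not overlap for 13 genes (10.2% of those tested). The median difference over all tested probes was 0.14, and it ran from -0.17 to 0.14 over 8 scalings of the arrays. The split of higher and lower probes moved with it, to 51 and 50 with the median of the probes detected on all arrays, 37 and 56 with their 75th percentile, and 40 and 28 with the spike-in controls. In bulk liver, fewer cells of a type and less RNA per cell cannot be told apart.

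**Figure D1:**
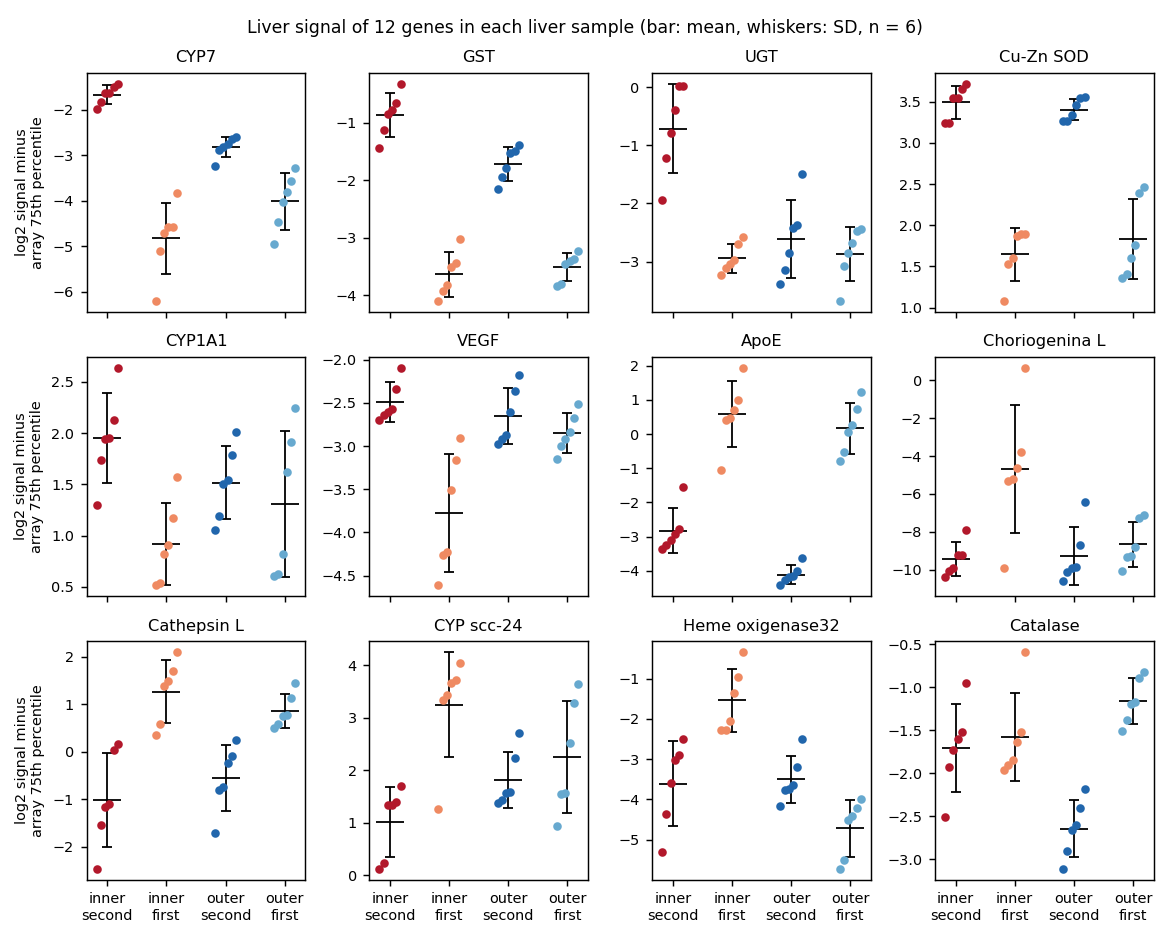
Level of 12 genes (log2 signal minus the array's 75th percentile, vertical axes) in each liver sample of the 4 groups (horizontal axes, inner second, inner first, outer second, outer first), with points for samples, long bars for means and whiskers for SD (n = 6). For CYP7 the inner second-sampling fish sit between -1.98 and -1.43, above all inner first-sampling fish at -6.19 to -3.83, while for ApoE they sit between -3.37 and -1.55, below all of them at -1.04 to 1.93.

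The list of phase I genes also holds the receptors AHR1 and AHR2 and the repressor AHRR. Of its 9 tested genes 5 were called higher, AHRR and AHR2 among them, none lower, and 4 were not called. The median difference was 0.72 against 0.15 over all 128 genes, of which 18.8% were called higher. The median of the list stayed above that of all genes, by 0.36 to 0.66, under all 8 scalings. Cyp2N, of a fish P450 subfamily, had levels of 3.70, 3.94 and 4.95 (lowest, median and highest fish) at the second sampling, against 0.10, 2.94 and 3.50 at the first. The groups did not overlap, and 1 first-sampling fish lay far below its 5 companions. The difference was 1.52 ± 0.42 (SE, n = 6 and 6, adjusted p = 0.0104), with both stretches called, and it stayed called in all 12 fits that each left out 1 fish (1.02 to 1.70).

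CYP1A1, the monooxygenase that the AHR induces, had 1.30, 1.95 and 2.64 at the second sampling, against 0.52, 0.87 and 1.57 at the first. All 6 second-sampling fish lay above the first-sampling median, and 5 of them above every first-sampling fish. The difference was 1.03 ± 0.28 (adjusted p = 0.00887), and the 4 separate stretches printed above gave 1.03 to 1.21, all called. The call held under 2 of 7 other scalings, with the difference positive under all 7. CYP3, of the P450 family that handles many drugs and steroids, had 0.84, 1.31 and 1.85 against 0.27, 0.62 and 0.89, a difference of 0.66 ± 0.17 (adjusted p = 0.00452) with 4 of 4 probes called.

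Of the receptors themselves, AHR2 was called on 2 of its 4 probes (0.76 ± 0.27, adjusted p = 0.0369) and lost the call in 6 of 12 fits that left out 1 fish. AHR1 had -0.01 ± 0.29. AHRR, the repressor of the AHR, was called at 1.36 ± 0.41 (adjusted p = 0.0171) on 1 tested probe. That probe was well above background in 2 of 6 second-sampling and 1 of 6 first-sampling fish, with levels of -9.05, -7.59 and -6.96 against -9.67, -9.28 and -8.57. Its size therefore rests on background signals. The other genes of the list not called were CYP_2 (0.72 ± 0.30, adjusted p = 0.0820), Epoxide_hydrolase1 (0.10 ± 0.26) and CYP4 (0.02 ± 0.31).

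Of 6 tested genes of phase II and transport, 4 were called higher, none lower, and 2 were not called, with a median difference of 0.91 against 0.15 over all genes, of which 18.8% were called higher. GST, which conjugates glutathione, had -1.43, -0.81 and -0.32 at the second sampling, against -4.09, -3.66 and -3.03 at the first. The gap between the groups was wide, with the dimmest second-sampling fish far above the brightest first-sampling fish. The difference was 2.77 ± 0.20 (adjusted p = 1.21e-10), a 6.84-fold change, and within the 3 slides it was 2.58, 2.75 and 2.99.

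UGT, named for the enzymes that attach glucuronic acid, had -1.94, -0.59 and 0.03 against -3.23, -3.01 and -2.58. Second-sampling fish were all higher and spread over a wider range than first-sampling fish. The difference was 2.23 ± 0.32 (adjusted p = 1.04e-05), and the probes of its 2 stretches gave 2.22 to 2.35. Within slides it ran from 1.26 to 3.11.

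The transporters moved less. ABCC2, which exports conjugates into bile, had -6.43, -5.54 and -4.71 against -7.03, -6.35 and -5.89, overlapping groups with 0.85 ± 0.27 (adjusted p = 0.0217, 4 of 4 probes). ABC-b1, named for the efflux pump family of P-glycoprotein, had -6.91, -6.85 and -5.93 against -8.28, -7.77 and -6.38, with 0.97 ± 0.33 (adjusted p = 0.0315) on 1 of 4 probes. Leaving out single fish ended the call of ABCC2 in 3 and that of ABC-b1 in 5 of 12 fits, and 4 of 7 other scalings ended both, normexp among them. ABCC3 had -1.08 ± 0.44 (adjusted p = 0.0744) and Putative_N-acetyltransferase 0.26 ± 0.22.

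In the list of bile acid, sterol and lipoprotein genes, 1 of 5 was called higher, 1 lower and 3 were not called. Over all genes 18.8% were called higher and 8.59% lower. The 2 calls of this list were the largest changes among genes well above background in every inner harbour fish. CYP7, of the P450 family that begins bile acid synthesis from cholesterol, had -1.98, -1.64 and -1.43 at the second sampling, against -6.19, -4.64 and -3.83 at the first. Second-sampling fish lay close together and first-sampling fish far apart, with no overlap. The difference was 3.16 ± 0.29 (adjusted p = 1.11e-08), an 8.92-fold change, and it was 3.82, 2.57 and 3.09 within the 3 slides.

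ApoE, a protein of lipoprotein particles, had -3.37, -3.01 and -1.55 at the second sampling, against -1.04, 0.59 and 1.93 at the first. It was lower in every second-sampling fish than in any first-sampling fish. The difference was -3.41 ± 0.39 (adjusted p = 2.49e-07), 10.6-fold lower at the second sampling. The remaining members were FABP (0.23 ± 0.24), a fatty acid carrier, Apo_A1 (0.12 ± 0.20), the main protein of high density lipoprotein, and ABC-B11 (-0.10 ± 0.20), the bile salt export pump. The median of this list, 0.12, had the opposite sign under 4 of 7 other scalings.

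**Figure D2:**
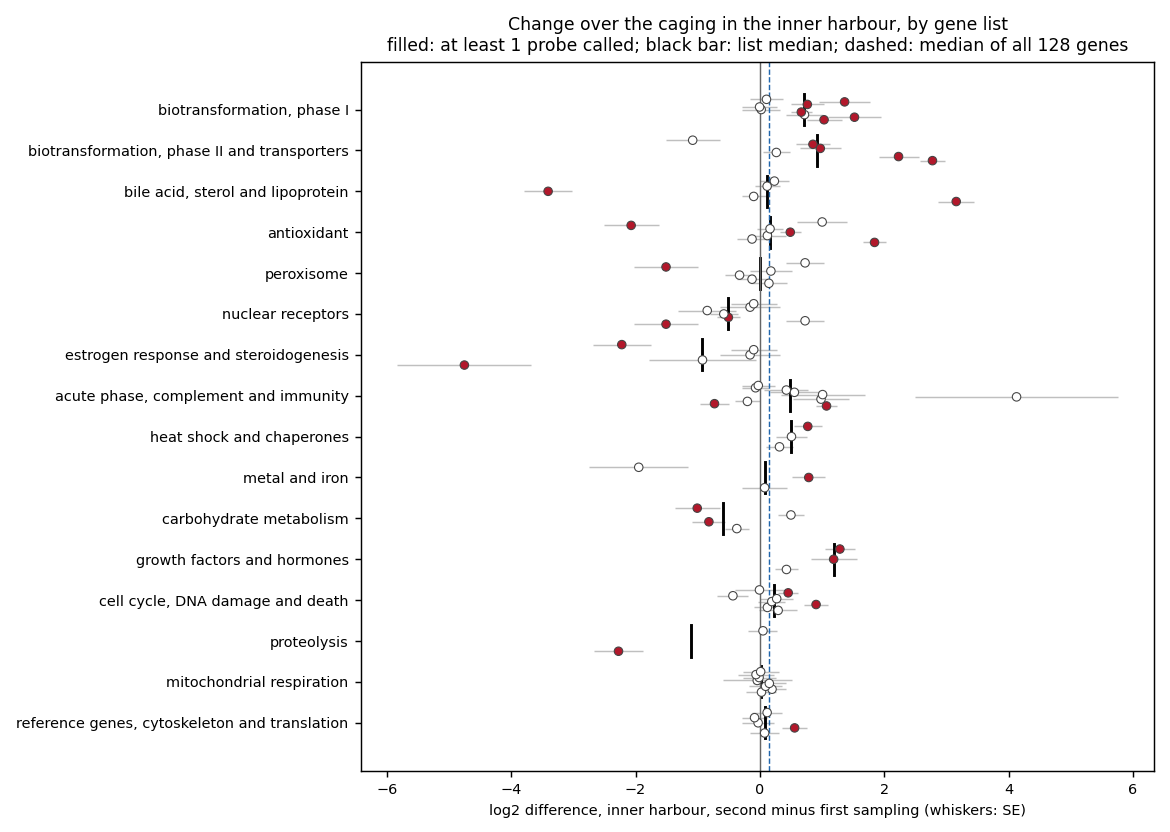
Difference between the second and the first sampling of the inner harbour (horizontal axis, log2) for each tested gene, with SE as whiskers, by gene list (vertical axis). Filled points have at least 1 called probe, black bars are list medians and the dashed line is the median of all 128 genes, 0.15. Both biotransformation lists have their medians to its right, at 0.72 and 0.91, and the 8 tested genes of the mitochondrial respiration list lie close to 0.

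Of 7 tested antioxidant genes 2 were called higher, 1 lower and 4 were not called, with a median of 0.16. Over all genes 18.8% were called higher and 8.59% lower, with a median of 0.15. Cu-Zn_SOD, the cytosolic enzyme that removes superoxide, had 3.24, 3.54 and 3.71 at the second sampling, against 1.08, 1.74 and 1.90 at the first. The groups were far apart, and the difference was 1.84 ± 0.19 (3.59-fold, adjusted p = 5.80e-08). Peroxiredoxine, a peroxide reductase, had a smaller difference of 0.49 ± 0.17 (adjusted p = 0.0339, 4 of 4 probes), called under 1 of 7 other scalings and in 3 of 12 fits that left out 1 fish.

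Heme_oxigenase32, named for the stress-induced enzyme of heme breakdown, went the other way. It had -5.31, -3.31 and -2.49 at the second sampling, against -2.29, -1.70 and -0.35 at the first. The groups did not overlap, though the highest second-sampling fish came close to the lowest first-sampling fish. The difference was -2.07 ± 0.44 (4.21-fold lower, adjusted p = 9.90e-04) and stayed called under all 7 other scalings. The genes not called were XDh (1.00 ± 0.40, adjusted p = 0.0718), thioredoxin-named THIO (0.16 ± 0.21), Glutathione_peroxidase_2 (0.12 ± 0.30) and Catalase (-0.13 ± 0.24), which breaks down hydrogen peroxide.

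Of 6 tested peroxisome genes 1 was called lower and 5 were not called, while 8.59% of all genes were called lower. PPARa, the receptor that drives peroxisomal and mitochondrial fatty acid breakdown in the liver, had -8.43, -7.63 and -5.92 against -6.77, -5.85 and -5.70. It was well above background in 4 of 6 second-sampling and 6 of 6 first-sampling fish, with a difference of -1.51 ± 0.51 (adjusted p = 0.0316, 3 of 4 probes). The call held in 5 of 12 fits that left out 1 fish. The peroxisomal enzymes and proteins AOX (0.14 ± 0.28), MF1 (0.18 ± 0.33) and PMP70 (-0.33 ± 0.24) were not called, nor was PPARg (0.73 ± 0.30, adjusted p = 0.0781). Among 7 nuclear receptors, the list median was -0.51, against 0.15 over all genes. RXR, the partner of PPAR in DNA binding, was the second called gene. It had -5.16, -4.91 and -4.37 against -4.97, -4.20 and -3.84, overlapping groups with -0.51 ± 0.18 (adjusted p = 0.0403). Thyroid_hormone_receptor_alfa (-0.58 ± 0.23, adjusted p = 0.0671), ERalpha (-0.16 ± 0.49) and Mugil_cephalusERb (-0.10 ± 0.37) were not called.

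Of 5 tested genes of estrogen response and steroid synthesis 2 were called lower, 3 were not called and the median was -0.92. Over all genes 8.59% were called lower and the median was 0.15. Choriogenina_L, an egg envelope protein that fish liver makes under estrogen, had -10.37, -9.59 and -7.90 at the second sampling, against -9.92, -4.93 and 0.64 at the first. It was well above background in 0 of 6 second-sampling fish and in 5 of 6 first-sampling fish, which ranged from background to 1 very bright fish. The second-sampling values are therefore only a bound, and the group means put the gene at least 12.5-fold lower (adjusted p = 0.00179). CYP_scc-24, named for the P450 that cleaves the cholesterol side chain at the start of steroid synthesis, had 0.12, 1.34 and 1.70 against 1.27, 3.55 and 4.05. All but 1 first-sampling fish lay well above every second-sampling fish, and the difference was -2.22 ± 0.46 (4.67-fold lower, adjusted p = 8.70e-04). The vitellogenin-named Mugil_cephalus_VgC varied widely, with -6.63, -4.31 and -3.38 against -7.82, -3.73 and -0.32, and was not called (-0.92 ± 0.86).

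Cathepsin_L, a lysosomal protease, had -2.46, -1.14 and 0.17 at the second sampling, against 0.35, 1.43 and 2.09 at the first. No second-sampling fish reached the lowest first-sampling fish, and the difference was -2.28 ± 0.39 (4.84-fold lower, adjusted p = 1.03e-04). The other tested gene of the proteolysis list, proteasome, had 0.05 ± 0.23.

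Of 10 tested genes of acute phase, complement and immunity 1 was called higher, 1 lower and 8 were not called. Over all genes 27.3% were called, and 10 genes are too few to tell these shares apart. The list median was 0.49, against 0.15 over all genes. The plasma protease inhibitor a-2_macroglobulin had 3.68, 4.02 and 4.32 against 2.61, 2.94 and 3.18. Neither group spread far and they did not overlap, with 1.07 ± 0.18 (2.10-fold, adjusted p = 6.10e-05) and both stretches called. C3, the central complement protein, gave different answers on its 2 stretches. The stretch of probe 1 had -3.88, -3.35 and -2.62 against -2.78, -2.50 and -2.43, a difference of -0.73 ± 0.23 (adjusted p = 0.0196). The stretch of probe 3 had 0.23 ± 0.21 (adjusted p = 0.486), so no direction is given for the gene as a whole. Haptoglobin, which binds free hemoglobin, had 1.17, 2.37 and 2.83 against 0.16, 1.20 and 2.03 and was not called (0.98 ± 0.45, adjusted p = 0.110).

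MHC_II, which presents antigen on immune cells, had the largest positive difference of all genes without a call (4.13 ± 1.64, adjusted p = 0.0704). It had -10.81, -4.17 and -1.72 at the second sampling, against -11.46, -10.56 and -4.75 at the first, and was well above background in 4 of 6 and 1 of 6 fish. Fish of the second sampling were thus either near background or bright, and the size of the MHC_II difference rests in part on background signals. Of the 3 genes that mark blood cells (MHC_II, Mhc2 and Liza_aurata_immunoglobulin) 0 of 3 were called, against 27.3% of all genes. MHC_II alone had an unadjusted p under 0.05 in limma's test. Their summed log2 level ran from -4.95 to -1.51 at the second sampling, against -5.61 to -3.97 at the first. Trypsin, which marks the exocrine pancreas that lies within the liver of many teleosts, was well above background in all 12 fish and varied from -3.46 to 4.78 at the second sampling, against -4.34 to 2.85 at the first (1.42 ± 1.46, not called). The part of either cell type in the results was not tested. Of 8 tested hepatocyte markers all were well above background in all 12 fish. Of these, a-2_macroglobulin and Transferrin were called higher, C3 (on 1 stretch) and ApoE lower, and 4 were not called, against 27.3% of all genes called. The summed log2 level of the 8 markers ran from 8.38 to 8.85 at the second sampling, against 8.03 to 8.55 at the first. The labelled tissue thus has its defining transcripts at both samplings, though single markers moved in either direction.

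The list of growth factors and hormones has 3 tested genes, of which 2 were called higher, against 18.8% of all genes. VEGF, which drives vessel growth, had -2.70, -2.59 and -2.10 against -4.61, -3.87 and -2.90. The second-sampling fish lay in a narrow band above all first-sampling fish, with 1.29 ± 0.24 (2.44-fold, adjusted p = 2.45e-04). IGF_II, an insulin-like growth factor, had -5.31, -4.34 and -3.70 against -6.12, -5.49 and -4.92, with 1.18 ± 0.37 (adjusted p = 0.0204) and both stretches called. IGFI, the main growth factor that the liver secretes, had 0.43 ± 0.19 (adjusted p = 0.0985). HIF1?, spelled with a question mark in the design and named for the hypoxia factor that induces VEGF, was called on 1 of 4 probes (0.55 ± 0.20, adjusted p = 0.0438) and lost the call with slide as a block.

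Of 4 tested genes of carbohydrate metabolism 2 were called lower, against 8.59% of all genes. Phosphoenolpyruvate carboxykinase, the committed enzyme of gluconeogenesis, had -4.42, -3.48 and -2.37 against -3.63, -2.47 and -1.56, overlapping groups with -1.01 ± 0.36 (adjusted p = 0.0409) on 2 of its 4 stretches. The call held in 4 of 12 fits that left out 1 fish. Mugil_cephalus_pgi-2, named for glucose phosphate isomerase, had -8.82, -8.06 and -7.47 against -8.15, -7.19 and -7.00 on 1 tested probe. It was well above background in 2 of 6 second-sampling and 6 of 6 first-sampling fish (-0.82 ± 0.27, adjusted p = 0.0244). Pyruvate_kinase (0.50 ± 0.21) and Mugil_cephalus_pgi-1 (-0.37 ± 0.19) were not called.

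Among 8 tested genes of cell cycle, DNA damage and death 2 were called higher and 6 were not called, while 18.8% of all genes were called higher. cyclin_G1, a target of p53, had 0.31, 0.46 and 0.70 against -0.75, -0.62 and 0.25, groups that did not overlap, with 0.90 ± 0.19 (1.87-fold, adjusted p = 8.77e-04). p53 itself had 0.29 ± 0.31. PCD8, named for programmed cell death, had 0.45 ± 0.16 (adjusted p = 0.0405), was called under 0 of 7 other scalings and had the opposite sign with quantile normalization. Of 3 heat shock genes 1 was called higher, against 18.8% of all genes. This was HSP90 (0.77 ± 0.23, adjusted p = 0.0144), while HSC70 (0.51 ± 0.24) and HSP70 (0.31 ± 0.21) were not called. Transferrin, the iron carrier of plasma, had 4.51, 5.02 and 5.19 against 3.24, 4.06 and 5.29. The brightest first-sampling fish exceeded all second-sampling fish, and the difference of 0.78 ± 0.26 (adjusted p = 0.0298) was called under 1 of 7 other scalings. The iron hormone Hepcidin (-1.95 ± 0.80, adjusted p = 0.0762) and the metal-binding MT (0.08 ± 0.36) were not called.

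5 further called genes belong to none of these lists. alcohol_DHVI, named for an alcohol dehydrogenase, had 1.79, 2.24 and 2.64 against -0.32, 0.88 and 1.44, again with no overlap (1.52 ± 0.24, adjusted p = 4.84e-05). DACD1, an abbreviation given as spelled, had -2.23, -1.76 and -1.18 against -3.55, -2.89 and -1.61 (1.13 ± 0.28, adjusted p = 0.00389). TBTbp, which bears the name of the fish plasma protein that binds the antifouling compound tributyltin, had 0.73 ± 0.22 (adjusted p = 0.0180), with all second-sampling fish above all first-sampling fish. FHC, also given as spelled, had 2.66, 3.24 and 4.09 against 3.61, 3.93 and 4.53 and was lower (-0.76 ± 0.23, adjusted p = 0.0180). HIF1? is described above.

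Genes often used as constant references moved little on this scale. 18S_rRNA had 0.07 ± 0.24, EF1-alpha -0.03 ± 0.25, ribosomal_protein_L12 -0.09 ± 0.20 and ribosomal_protein_S21 0.11 ± 0.24, none of them called, and the signs of 18S_rRNA and ribosomal_protein_S21 turned under 4 of 7 other scalings. Beta-actin was called on 3 of 5 probes (0.56 ± 0.20, adjusted p = 0.0391), but it was -0.07 within slide 2 and was called in 3 of 12 fits that left out 1 fish. Of the 13 genes in the list of mitochondrial respiration 8 were tested. Of these, 0 were called in limma's test, 0 had an unadjusted p under 0.05, and their differences ran from -0.06 to 0.19. Over all 128 genes 27.3% were called and 49 genes had an unadjusted p under 0.05. The genes spelled cyt_C, Fo and mitochondrial are outside that list and were not called either.

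The strength of the calls differed between genes. Of the 35 called genes, 13 were called in the same direction under all 7 other scalings: CYP7, GST, UGT, Cu-Zn_SOD, Cyp2N, alcohol_DHVI, VEGF, a-2_macroglobulin, FHC, Heme_oxigenase32, CYP_scc-24, Cathepsin_L and ApoE. Another count, 20 of 35, kept the call whichever inner harbour fish was left out. With slide as a block 34 stayed called, with only the 12 inner harbour arrays 28, and with sample number as a block 16. Within all 3 slides, each of which holds 2 arrays of either sampling, 34 had the same sign. The slides hold the same arrays on which the genes were called.

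**Figure D3:**
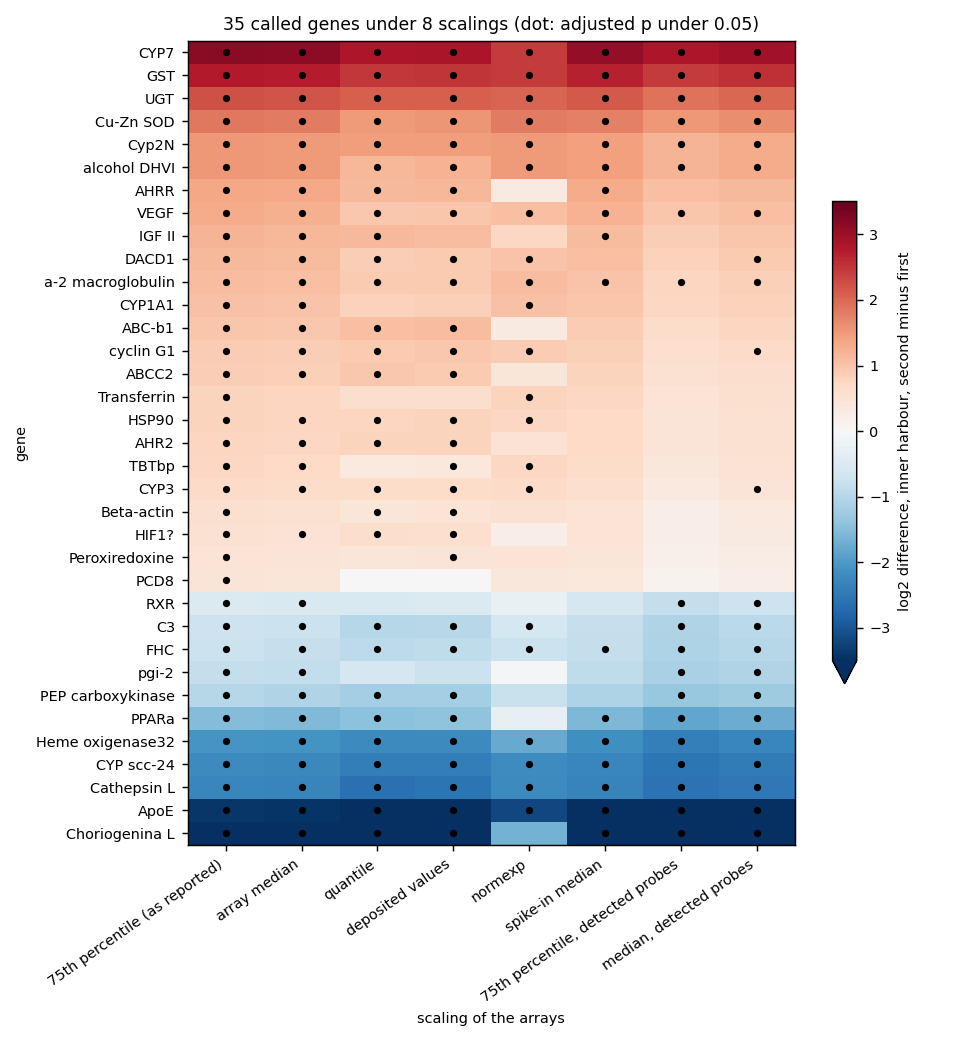
Difference between the second and the first sampling of the inner harbour (colour, log2, values under -3.5 shown at the end of the scale) for the 35 called genes (vertical axis) under 8 scalings of the arrays (horizontal axis), with a dot where the adjusted p was under 0.05. The rows of CYP7, GST, UGT and Cu-Zn_SOD at the top and of Heme_oxigenase32, CYP_scc-24, Cathepsin_L and ApoE near the bottom carry a dot in every column.

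The outer harbour was set beside these changes to show where the inner harbour differs. Its second-sampling arrays had 371 to 455 probes well above background (mean 427.0), against 457 to 482 (mean 470.5) on its first-sampling arrays. Spots left out ran from 40 to 125 and from 43 to 100. The part of this in the outer results was not tested. In the outer harbour, 24 of 128 genes (18.8%) had a called probe between its own samplings, 6 higher (4.69%) and 18 lower (14.1%). Over probes 15 were higher (3.15%) and 64 lower (13.4%). This split turned with the scaling, to 41 higher and 33 lower probes (14 and 10 genes) with the array median and to 114 and 36 (34 and 10 genes) with the median of the probes detected on all arrays. Quantile normalization gave 28 and 45, the deposited values gave 29 and 47, and the median outer difference over all tested probes ran from -0.33 to 0.26 over 8 scalings. On the probes given above, 7 of the 35 inner harbour genes were also called in the same direction in the outer harbour: CYP7 (3.16 in the inner and 1.20 in the outer harbour), GST (2.77 and 1.80), Cu-Zn_SOD (1.84 and 1.57), RXR (-0.51 and -0.66), phosphoenolpyruvate carboxykinase (-1.01 and -1.54), Cathepsin_L (-2.28 and -1.42) and ApoE (-3.41 and -4.28). They stand against 20 genes called in the outer harbour on the same probes, 3 higher and 17 lower. PCD8 was called in opposite directions, at 0.45 in the inner and -0.75 in the outer harbour.

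The difference between the 2 changes was tested as an interaction, inner minus outer, and 17 of 128 genes (13.3%) had a called probe, 14 of them on the probe given here. The inner change was the higher one for 15 genes (11.7%) and the lower one for 2 (1.56%), and over probes for 53 (11.1%) and 5 (1.05%). This direction also turned with the scaling, to 10 higher and 21 lower probes (3 and 8 genes) with the median of the probes detected on all arrays and to 6 and 8 (2 and 4 genes) with quantile normalization. The array median gave 19 and 11 (5 genes each), the 75th percentile of detected probes 18 and 9, the spike-in controls 7 and 4, and the deposited values 7 and 6. Heme_oxigenase32 had the largest difference among those 14 genes and, alone among them, the lower inner change. In the outer harbour it had -4.15, -3.70 and -2.51 at the second sampling, against -5.73, -4.46 and -3.99 at the first, a change of 1.22 where the inner harbour had -2.07. The interaction was -3.29 ± 0.62 (adjusted p = 0.00162) and was called under all 7 other scalings. Inner first-sampling fish, at -2.29 to -0.35, were the brightest of the 4 groups. The list of estrogen response and steroid synthesis had 1 gene with a called interaction, on a probe not given here. Choriogenina_L was not called in this test on its given probe. Its outer fish ran from -10.60 to -6.45 at the second sampling, against -10.06 to -7.11 at the first.

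UGT, CYP7 and GST had larger positive changes in the inner than in the outer harbour. UGT had an interaction of 1.98 ± 0.45 (adjusted p = 0.00586), called under 5 of 7 other scalings, and its outer fish had -3.39, -2.64 and -1.50 against -3.67, -2.77 and -2.45. CYP7 had 1.96 ± 0.42 (adjusted p = 0.00318) and GST 0.98 ± 0.28 (adjusted p = 0.0264), called under 2 and 1 of the 7. Cu-Zn_SOD (0.27 ± 0.27) and ApoE (0.87 ± 0.55) were not called in this test. CYP1A1 (0.82 ± 0.40, 95% interval -0.002 to 1.64) and Cyp2N (0.58 ± 0.60) were not called either, so their changes are not shown to differ between sites.

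Several genes had a called interaction without a called change in the inner harbour. In the outer harbour 6 of them were called lower at the second sampling. These were AOX (0.14 in the inner and -1.43 in the outer harbour, interaction 1.57 ± 0.40, called under 6 of 7 other scalings), Catalase (-0.13 and -1.48), Epoxide_hydrolase1 (0.10 and -1.03), Pyruvate_kinase (0.50 and -0.79), HSP70 (0.31 and -0.71) and IGFI (0.43 and -0.58). HSC70 had 0.51 in the inner and -0.64 in the outer harbour, neither of them called. Most of these interactions were lost under most of the 7 other scalings: Catalase and IGFI were called under 2, Pyruvate_kinase, HSP70 and HSC70 under 1 and Epoxide_hydrolase1 under 0. In the peroxisome list the median change was 0.01 in the inner and -1.05 in the outer harbour, against 0.15 and -0.04 over all 128 genes. In the outer harbour 4 of its 6 genes were called lower, against 17 of all 128 on the same probes. How this outer median moves with the scaling was not tested. VEGF, Transferrin and PCD8, called higher in the inner harbour, had interactions of 1.09 ± 0.34, 1.28 ± 0.37 and 1.20 ± 0.23, called under 0, 1 and 2 of the 7. The number of calls in this test depended on the scaling, from 58 probes as reported to 11 with the spike-in controls, and all 14 genes kept their sign under every scaling.

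**Figure D4:**
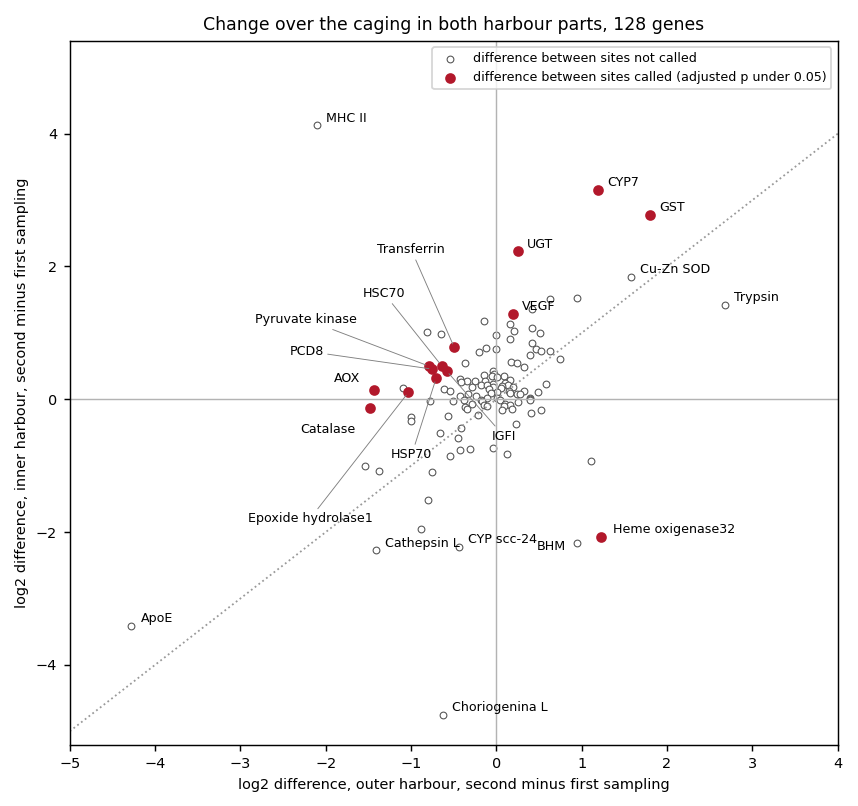
Difference between the second and the first sampling in the inner harbour (vertical axis, log2) against the same difference in the outer harbour (horizontal axis, log2) for 128 genes, with filled points where the difference between the 2 changes was called and a dotted line where both changes are equal. UGT, CYP7 and GST lie above the line and Heme_oxigenase32, at -2.07 in the inner and 1.22 in the outer harbour, lies below it.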

How the data were processed

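Total RNA of each liver was labelled with Cy3 and hybridised to a custom 1-colour Agilent array, per the labels' protocols. Agilent Feature Extraction 9.5.3.1 gave the deposited intensity of each spot, per the file headers, with background subtracted, trends across the array removed and surrogates standing in for the dimmest signals. A second table of log2 values deposited by the authors, with its normalization not given in the sources used here, served as an alternative. It followed each array's own log2 signal, and its array medians were nearly equal, at 6.77 to 6.82. The deposited values gave nearly the same counts as quantile normalization, with 114 and 116 called inner harbour probes. For the inner minus outer difference they gave 13 and 14. Among the 7 other scalings these can hardly be read as separate checks.

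Uneven and outlier spots (49 to 88 per inner harbour array) were left out, no spot was saturated, and spots of a probe were averaged as log2 and scaled to the array's 75th percentile. Overlapping probes were joined into stretches by 12 shared bases, and 8 gene spellings were joined. One limma model (limma 3.58.1, R 4.3.3) with 4 group coefficients was fitted to all 24 arrays, and p-values were Benjamini-Hochberg adjusted over 476 probes, two-sided, called under 0.05. A gene is represented by the brightest of its called probes, or of its tested probes where none was called. Called genes with the largest changes, at most 15 in either direction, are described by fish. So are some others, such as Transferrin and CYP3 and, without a call, MHC_II, Haptoglobin, Mugil_cephalus_VgC and BHM. Tested list members are reported whatever their p. A fold is 2 to the power of the log2 difference. A fold is only a lower bound if all fish of the dimmer group failed the background test for the probe. It is then taken against the faintest detected signal on each array. Members, gene lists, stretches and joins were chosen with earlier results of these data known. Alternatives were 7 other scalings, other filters, spot summaries and probe choices, slide and sample number as blocks, the site's own arrays, and each array left out. On simulated data with 100 of 476 probes changed in the inner harbour comparison, the fit recovered 60% of changes of 1 log2 unit and 94% of changes of 2, with 2.53% false calls. The simulated probes varied independently of one another, unlike the overlapping probes of a gene, so these rates are not those of the data. Precision is set by how many arrays there are, with a median SE of 0.25. The values of 1 tested list member are not reported here.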

Additional observations from a re-analysis of the deposited data

Results flagged for a closer look

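On the scaling reported, 14 genes had a called difference between the inner and outer changes by the test of the difference itself. The inner minus outer difference of the changes was -3.29 for Heme_oxigenase32. It was 1.98 for UGT, 1.96 for CYP7 and 0.98 for GST among biotransformation and bile acid genes, and 1.14 for Epoxide_hydrolase1. Among peroxisomal and antioxidant genes it was 1.57 for AOX and 1.35 for Catalase. It was 1.09 for VEGF, 1.01 for IGFI, 1.28 for Transferrin, 1.28 for Pyruvate_kinase, 1.20 for PCD8, 1.15 for HSC70 and 1.02 for HSP70. Of the 14, normexp kept 12, the array median and the 75th percentile of detected probes 5 each, and the spike-in controls 3. Quantile normalization, the deposited values and the median of detected probes kept 2 each. VEGF and Epoxide_hydrolase1 were called under 0 of 7 other scalings. Of 24 fits that each left out 1 fish, VEGF was called in 13, HSC70 in 16 and Epoxide_hydrolase1 in 12, and the other 11 genes in all 24.

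In 9 of 100 groups of 6 inner harbour fish (50 genes), 1 fish lay far from its group by Dixon's test, where chance flags about 1 in 20. At the second sampling these were ApoE at -1.55 in fish 3, which was the highest, and Beta-actin at 0.75 and Peroxiredoxine at -0.29 in fish 4, which were the lowest. At the first sampling fish 5 had the lowest Cyp2N (0.10, with the next at 2.68) and the lowest IGFI (-1.37), and fish 8 the highest MHC_II (-4.75) and the lowest CYP_scc-24 (1.27). Fish 4 had the highest Catalase (-0.59) and fish 3 the lowest PPARa (-6.77). Without fish 5 of the first sampling, Cyp2N still rose, by 1.02. Among these genes, Beta-actin, Peroxiredoxine and PPARa lost their call when other single fish were left out.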

How the results depend on the processing

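As reported, the inner harbour had 121 called probes (35 genes), the outer harbour 79 (24 genes) and the difference of the changes 58 (17 genes). In the inner harbour the spike-in scaling gave 68 probes (20 genes), 1 probe per gene 32, 1 probe per target stretch (chosen after seeing the data) 43 and the sample number as a replicate block 65 (19 genes). In the outer harbour, no filter gave 129 (52 genes), the median over detected probes (added after seeing the data) 150 (44 genes), 1 probe per gene 19, 1 per stretch 22 and the replicate block 27 (8 genes). For the difference of the changes the counts were 30 (10 genes) with the array median, 14 (6) with quantile normalization, 27 (10) with the 75th percentile over detected probes, 11 (3) with spike-ins, 13 (5) with the deposited values, 31 (11) with the added median, 14 with 1 probe per gene, 15 with 1 per stretch and 20 (6) with the replicate block. The fall with 1 probe per gene or stretch follows from fewer probes tested, and the cause of the others was not tested. Leaving out each array gave 94 to 125 probes (28 to 37 genes) in the inner harbour, 60 to 80 (16 to 24) in the outer harbour and 47 to 73 (14 to 21) for the difference. Of the called inner harbour genes, Beta-actin turned to -0.067 within slide 2 and PCD8 to -0.0075 with quantile normalization, and no other sign turned under the alternatives run. Of their tested alternative values, single arrays left out included, 740 stayed called in the same direction and 198 lost the call, and of the untested values within slides 104 had the same sign. Deviations of same-numbered inner harbour fish correlated with r from -0.28 to 0.15, and those of differently numbered fish from -0.75 to 0.45. So few pairs cannot show whether the sample numbers mark a block, and 16 of 35 genes stayed called under the block. Counting every unflagged spot of a probe gave -17.8 detected probes between samplings (exact permutation p = 0.0931). AHRR, Mugil_cephalus_pgi-2, PPARa and Choriogenina_L are limited by signals near background, as is MHC_II, which was not called.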

Other observations

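The spread between fish of 1 group had a median SD over genes of 0.39 at the second and 0.47 at the first sampling of the inner harbour, and 10 and 14 genes had an SD over 1 log2 unit. In the outer harbour the median SD was 0.36 at the second and 0.47 at the first sampling, with 6 and 15 such genes. On the first principal component of the 12 inner harbour arrays, which held 40.2% of the variance, second-sampling fish lay between 5.71 and 15.7 and first-sampling fish between -18.6 and -5.27. Among genes in no list and not called, BHM, an abbreviation given as spelled, had levels of -8.44, -7.02 and -5.63 at the second sampling, against -6.28, -5.69 and 0.52 at the first (-2.16 ± 0.88, adjusted p = 0.0751). VHSV-induced_protein, named for its induction by a fish virus, had -0.74 ± 0.59, and MxP -1.10 ± 0.56, neither of them called. The clotting genes Prothrombin (0.21), Beta-Fibrinogen (0.24 ± 0.15) and Fibrinogen_G (0.17 ± 0.15), made by the liver, were not called either.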
